A study of Mus musculus with 6 samples.

Results

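The neutrophil granule and maturation genes are 41 mouse genes that mark successive steps in the making of a neutrophil, from the proteases packed first in the bone marrow to the receptors of the circulating cell. They were chosen by name, as rows of the deposited count table whose Ensembl ID maps to 1 of 41 listed symbols. All 41 were found among the 56884 genes of the table. RNA-seq covered 3 wild-type (WT) libraries of splenic B cells obtained by selection, with columns headed BL6 wt, and 3 spleens from passage 1 (P1) of Eµ-SOX11CCND1, a mouse model of mantle cell lymphoma. Eµ is an enhancer of the immunoglobulin heavy chain gene that is active in B cells, SOX11 encodes a transcription factor and CCND1 encodes cyclin D1. The series text describes an adoptive transfer. The labels give no genotype, strain, age or sex for the P1 mice and no cell selection for their spleens, and whether the 3 carry cells of 1 donor is not stated. No label links a WT column to a numbered mouse. The letters A, B and C therefore stand for those columns in file order, while P1 columns carry the labelled numbers 3, 4 and 5. The headers of WT A and WT B share a tag that the header of WT C lacks, and its meaning is not stated.

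Neutrophils form their granules in sequence. Primary (azurophil) granules are filled at the promyelocyte stage with myeloperoxidase and serine proteases, secondary (specific) granules at the myelocyte and metamyelocyte stages with lactoferrin and antimicrobial proteins, and tertiary (gelatinase) granules later still. The chemokine and formyl peptide receptors appear as the cell matures and leaves the marrow, by which time most transcripts of the primary granule proteins have gone. The mouse spleen holds mature neutrophils in its red pulp and can itself make granulocytes.

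In P1 spleen, genes of every stage stood far above their level in WT B cells. Secondary granule genes took 56.7 to 66.6% of the counts of the 41 genes in each P1 library. Ngp, Ltf, Lcn2 and Camp together with the calprotectin genes S100a8 and S100a9 stood at 76.8 to 2454 normalised CPM in the P1 libraries and at no more than 1.51 in any WT library. Of 41 members tested, 39 were higher and 0 lower in P1 (edgeR quasi-likelihood test, Benjamini-Hochberg adjusted p under 0.05 over all genes, n = 3 per group). Among all 15462 tested genes 16.9% were higher and 11% lower by the same rule. DESeq2 called 40 members higher and 0 lower, and at an unadjusted p under 0.05 edgeR had 40 higher and 0 lower. In the same 39 genes every P1 library lay above every WT library, which held for 22.9% of all tested genes, and 0 had every P1 library below every WT library (24.9% of all tested genes). Without P1 replicate 4, a library that stands apart, 40 members were called higher. The median log2 fold change was 7.19 over the members and 0.02 over all tested genes. The members' median was 6.32 without P1 replicate 3 and 7.86 without WT C. Leaving out P1 replicate 3 lowered the fold of 28 of the 41 members by over 1.5 times, most in Fpr1. Leaving out WT C raised that of 12 by as much, most in Ms4a3, and leaving out WT A, WT B or P1 replicate 4 moved 5, 4 and 1. The median of the 41 was also 7.19 with the 2 genes that had 0 counts in WT set at their lower bound. Both bounds lie above that median, so this setting could not move it. The 2 members not called were Pglyrp1 and Fpr1.

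These numbers compare whole spleen with selected B cells. The filter on low counts asked for 0.887 CPM in 3 libraries: 41 members met it in all 3 P1 libraries and 7 in all 3 WT libraries, so 34 were tested only through their P1 level. More neutrophils and more RNA per neutrophil cannot be told apart in such bulk samples. Cell selection and the lymphoma model differ between the groups at once, and their effects cannot be told apart. Normalised CPM express a count relative to the library total after scaling by the TMM factor, and are given in the order WT A, B, C and P1 replicates 3, 4, 5. The ± after a log2 fold change is an approximate standard error: the size of the log2 fold change divided by the square root of the edgeR F statistic.

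**Figure D1:**
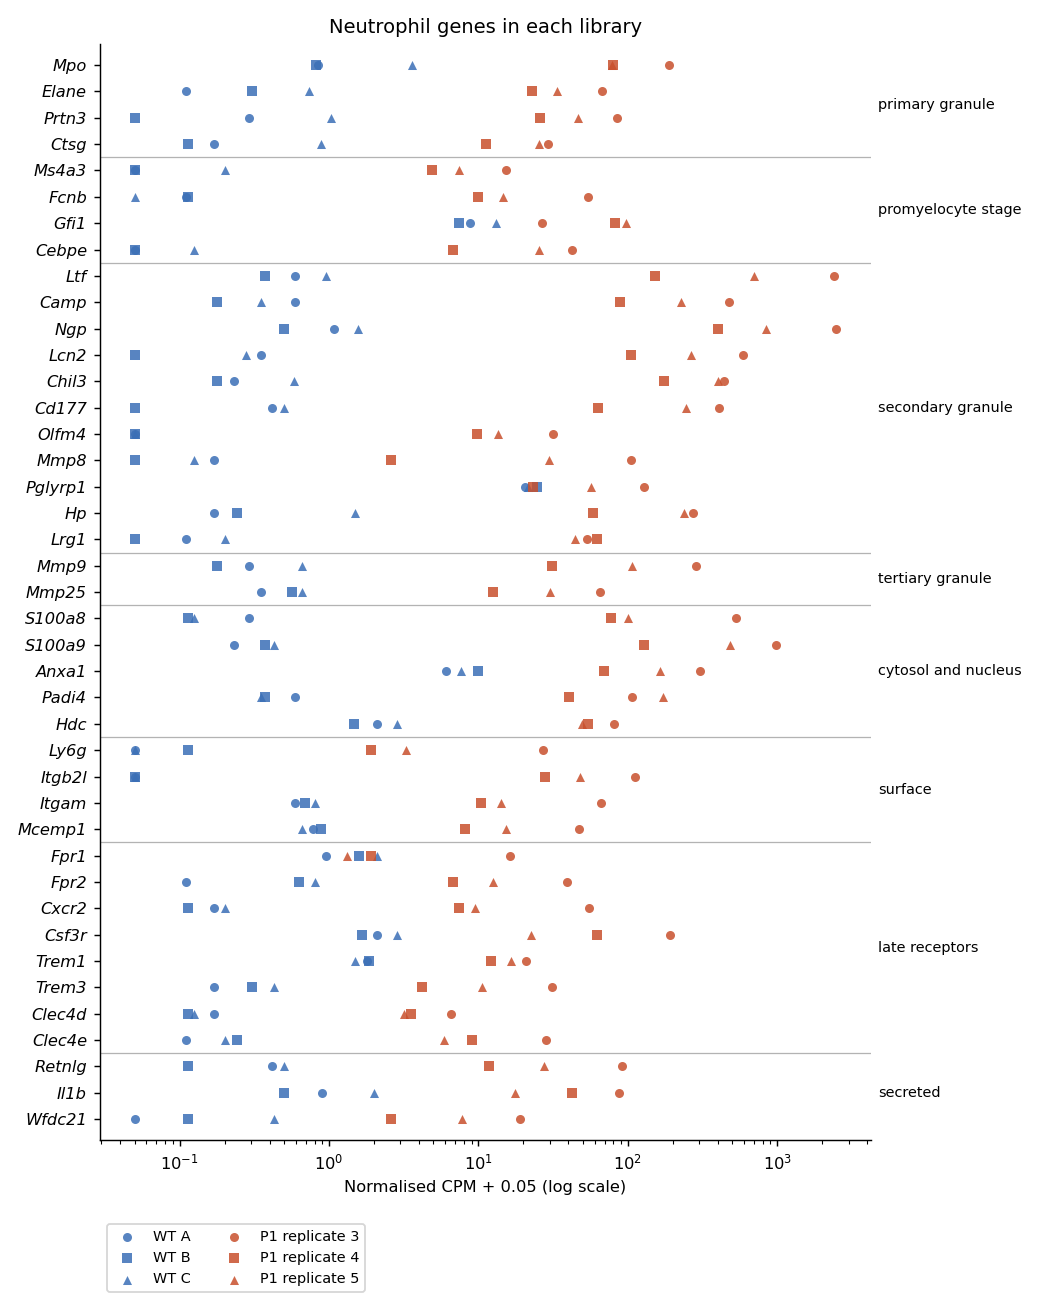
Normalised CPM plus 0.05 (log axis) of the 41 genes in each of the 6 libraries, grouped by class from the primary granule (top) to secreted products (bottom); blue marks are WT B cells, orange marks P1 spleens. Only in Pglyrp1 and Fpr1 do the marks of the 2 groups overlap, and 38 of the 41 genes are highest in P1 replicate 3.

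Library totals ran from 12196413 to 14266132 counts in WT and from 7510327 to 10363396 in P1. No 2 libraries were repeats of each other (chi-square per degree of freedom 22.1 to 23.8 within WT and 144 to 326 within P1). P1 replicate 4 stood apart, with 17.4% of its counts from mitochondrial genes against 3.40% and 0.0854% in replicates 3 and 5, and 223430 CPM summed over 11 erythroid genes against 36055 and 6666. Its TMM factor was 0.578 against 1.13 and 1.09. In the WT libraries, labelled as B cells, 15 pan-B cell genes summed to 11124 to 11825 CPM, against 1214 to 3579 in P1. The 20 monocyte and macrophage markers summed to 399, 888 and 1175 CPM in WT A, B and C. The B cell sum therefore does not show that WT was free of other cells.

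The 4 promoters shown are those of the gene with the highest level per kilobase in P1 in each of 4 classes. These promoters, from the primary granule, secondary granule, cytosol and nucleus, and late receptor classes, are shown for comparison. They are the 250 bases before the RefSeq start, 5′ to 3′ on the gene's strand, in build GRCm38.p6, which is not the GRCm39 build of the counts. Capitals mark matches on either strand to TTGCNNAA (C/EBP, the family of Cebpe), GAGGAA (PU.1, the product of Spi1) or TGTGGT (RUNX).
Elane, primary granule, chr10:79886062-79886311, plus strand: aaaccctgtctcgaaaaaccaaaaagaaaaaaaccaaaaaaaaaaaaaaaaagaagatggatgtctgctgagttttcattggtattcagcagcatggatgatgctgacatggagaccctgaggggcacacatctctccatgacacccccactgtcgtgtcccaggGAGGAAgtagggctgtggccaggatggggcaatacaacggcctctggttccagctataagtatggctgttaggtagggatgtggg
Ngp, secondary granule, chr9:110419558-110419807, plus strand: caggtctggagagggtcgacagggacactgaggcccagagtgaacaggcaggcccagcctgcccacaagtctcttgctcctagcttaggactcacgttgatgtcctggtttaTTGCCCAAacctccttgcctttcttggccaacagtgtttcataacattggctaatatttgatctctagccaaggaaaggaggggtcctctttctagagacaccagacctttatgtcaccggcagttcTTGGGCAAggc
S100a9, cytosol, chr3:90695722-90695971, minus strand: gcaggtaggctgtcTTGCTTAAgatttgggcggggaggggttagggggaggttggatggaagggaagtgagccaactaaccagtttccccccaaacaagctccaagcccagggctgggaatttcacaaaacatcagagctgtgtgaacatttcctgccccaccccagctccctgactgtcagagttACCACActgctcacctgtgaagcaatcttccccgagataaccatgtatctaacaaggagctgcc
Csf3r, late receptor, chr4:126024409-126024658, plus strand: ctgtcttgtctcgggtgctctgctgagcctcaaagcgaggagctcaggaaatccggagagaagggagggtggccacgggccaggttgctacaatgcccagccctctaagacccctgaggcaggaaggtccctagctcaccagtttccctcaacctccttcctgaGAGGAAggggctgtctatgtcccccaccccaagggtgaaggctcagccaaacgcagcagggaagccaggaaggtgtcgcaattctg

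Ngp held 2 C/EBP matches, at 138 to 131 and at 11 to 4 bases before the start. Elane and Csf3r each held 1 PU.1 match, at 85 to 80 and 86 to 81 bases, and S100a9 held 1 C/EBP and 1 RUNX match. No match of these 4 promoters overlapped another. The RefSeq table held 38 promoters for 36 of the 41 members, and none for Hp, Cebpe, Trem3, Wfdc21 and Mmp9. Gfi1 and Ly6g had 2 promoters each. Those of Ly6g overlap and hold the same 2 PU.1 matches, so the 38 are not all separate. A C/EBP match was found in 11 of the 38 (28.9%) against 9.56% of all 32851 promoters, a PU.1 match in 23 (60.5%) against 23.3%, and a RUNX match in 4 (10.5%) against 14.0%. Such a match is a run of letters and shows no binding, and 9 of the 38 promoters, Camp, Chil3 and Fpr1 among them, held none of the 3.

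The 4 primary granule genes all rose. Mpo, the peroxidase that makes hypochlorous acid (chromosome 11, 87684407 to 87695239; all gene coordinates are those of the table, GRCm39), stood at 0.788, 0.771 and 3.55 CPM in WT and 188, 79.6 and 78.6 in P1. Its log2 fold change was 6.10 ± 0.74 (edgeR adjusted p = 0.000986). The elastase gene Elane (chromosome 10, 79722081 to 79724049) went from 0.0606, 0.257 and 0.680 to 66.8, 22.9 and 33.8 CPM, a log2 fold change of 6.97 ± 0.75 (edgeR adjusted p = 0.000762). In these genes WT C was the highest WT library and P1 replicate 3 the highest P1 library, with no overlap of the groups. Prtn3 (proteinase 3), whose gene ends 3.07 kb before that of its neighbour Elane begins, rose by 7.04 ± 0.94 (edgeR adjusted p = 0.00147), from 0.242, 0 and 0.983 to 85.0, 25.7 and 46.6 CPM. Ctsg (cathepsin G) rose by 6.04 ± 0.84 (edgeR adjusted p = 0.00169), from 0.121, 0.0642 and 0.832 to 29.1, 11.1 and 25.3 CPM. Prtn3 overlaps Plppr3 on the opposite strand, which had 67 to 319 counts in all 6 libraries, and the counting strand is not stated. Prtn3 itself had 4, 0 and 13 (WT) and 989, 111 and 402 (P1) counts.

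Of the genes of the promyelocyte stage, Cebpe, Fcnb and Ms4a3 were near absent from WT and Gfi1 was not. Cebpe, the transcription factor that secondary granule genes require (chromosome 14, 54947817 to 54949631), had 0, 0 and 1 (WT) and 489, 29 and 220 (P1) counts, in the order of libraries given above. The ratio of P1 to WT was 1361 with an exact 95% counting interval of 243 to 53819 (edgeR adjusted p = 0.000799). Fcnb, which encodes the lectin ficolin B, had 1, 1 and 0 (WT) and 631, 43 and 126 (P1) counts, a ratio of 738 (204 to 6101; edgeR adjusted p = 0.000831). Ms4a3, a membrane protein gene of granulocyte and monocyte progenitors, had 0, 0 and 2 (WT) and 176, 21 and 63 (P1) counts, a ratio of 239.7 (65.7 to 1990; edgeR adjusted p = 0.00144). These intervals cover counting error only, and their width comes from the 1 or 2 counts in WT. Gfi1 (chromosome 5, 107864523 to 107873902), a repressor needed by neutrophil precursors that lymphocytes also use, rose by 2.82 ± 0.50 (edgeR adjusted p = 0.00420). It stood at 8.73, 7.32 and 13.0 CPM in WT and 26.6, 82.6 and 96.5 in P1. Gfi1 was the only member that was lowest in P1 replicate 3, the library in which the other 3 genes of its class were highest.

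Of the 11 secondary granule genes 10 rose. Per kilobase of gene model, Ngp, a cystatin-like granule protein gene (chromosome 9, 110248815 to 110252080), reached 2009, 326 and 686 CPM per kb in P1 replicates 3, 4 and 5. Camp, which encodes the cathelicidin antimicrobial peptide, reached 629, 117 and 301, and Ltf, which encodes iron-binding lactoferrin, 700.2, 44.0 and 203. Camp, Ngp and Ltf lie in that order on chromosome 9, with gaps of 570 and 596 kb. Ngp went from 1.03, 0.449 and 1.51 to 2454, 398 and 838 CPM, a log2 fold change of 10.27 ± 0.99 (edgeR adjusted p = 0.000579). Ltf (chromosome 9, 110848339 to 110871835) went from 0.545, 0.321 and 0.907 to 2416, 152 and 702 CPM (10.84 ± 1.26, edgeR adjusted p = 0.000909). Camp (chromosome 9, 109676447 to 109678685) went from 0.545, 0.128 and 0.302 to 477, 88.6 and 228 CPM (9.61 ± 0.86, edgeR adjusted p = 0.000528). For each of these 3 genes P1 replicate 4 was the lowest recipient, at 88.6 CPM or more, while no WT library passed 1.51.

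Most other secondary granule genes had the same order of recipients. Lcn2, whose product lipocalin 2 binds bacterial siderophores, went from 0.303, 0 and 0.227 to 593, 105 and 267 CPM (10.75 ± 1.02, edgeR adjusted p = 0.000579). Chil3, a chitinase-like protein gene that macrophages can also express, went from 0.182, 0.128 and 0.529 to 441, 175 and 398 CPM (10.24 ± 0.68, edgeR adjusted p = 0.000337). Its close relative Chil4 had 0 to 1 counts in every library. Cd177, a surface protein gene, and Hp, which encodes haptoglobin, reached 405, 63.4 and 246 and 273, 58.1 and 237 CPM in P1. Olfm4 (olfactomedin 4) had 0 counts in WT and 366, 42 and 117 in P1, at least 323-fold higher against a floor of 3 counts over the WT group (edgeR adjusted p = 0.00106).

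Lrg1 departed from that order of recipients. Mmp8 and Pglyrp1 kept it but stood out in other ways. Mmp8, the neutrophil collagenase, had 2, 0 and 1 (WT) and 1225, 11 and 256 (P1) counts. It fell furthest of all members from P1 replicate 3 to replicate 4, by 5.37 on the log2 scale, and its call was lost with no filter on low counts (edgeR adjusted p = 0.0599). Lrg1, which encodes a leucine-rich glycoprotein of secondary granules, was nearly even among the recipients, at 53.3, 62.2 and 44.3 CPM, against 0.0606, 0 and 0.151 in WT. Pglyrp1, which encodes a peptidoglycan-recognition protein, had the highest CPM of all members in WT. It stood at 20.5, 24.8 and 21.5 CPM there and at 129, 23.1 and 56.5 in P1, so replicate 4 lay within the WT range. Its log2 fold change of 1.65 ± 0.54 was not called (edgeR adjusted p = 0.0515). The call was made by DESeq2 (adjusted p = 0.0127) and, in edgeR, with DESeq2 size factors (adjusted p = 0.0485), with scaling that centres 15 pan-B cell genes (B-cell-centred; adjusted p = 0.000376) and without P1 replicate 4 (adjusted p = 0.00836). Over all alternatives its edgeR or DESeq2 adjusted p ran from 0.000376 to 0.158.

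Both tertiary granule genes rose. Mmp9, which encodes gelatinase B (chromosome 2, 164782700 to 164797770), went from 0.242, 0.128 and 0.605 to 284, 31.0 and 107 CPM (8.76 ± 1.02, edgeR adjusted p = 0.000909). Mmp25, a membrane-anchored metalloproteinase gene, went from 0.303, 0.514 and 0.605 to 64.8, 12.5 and 30.3 CPM (6.23 ± 0.71, edgeR adjusted p = 0.000831). Each had its highest level in P1 replicate 3 and its lowest P1 level in replicate 4.

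**Figure D2:**
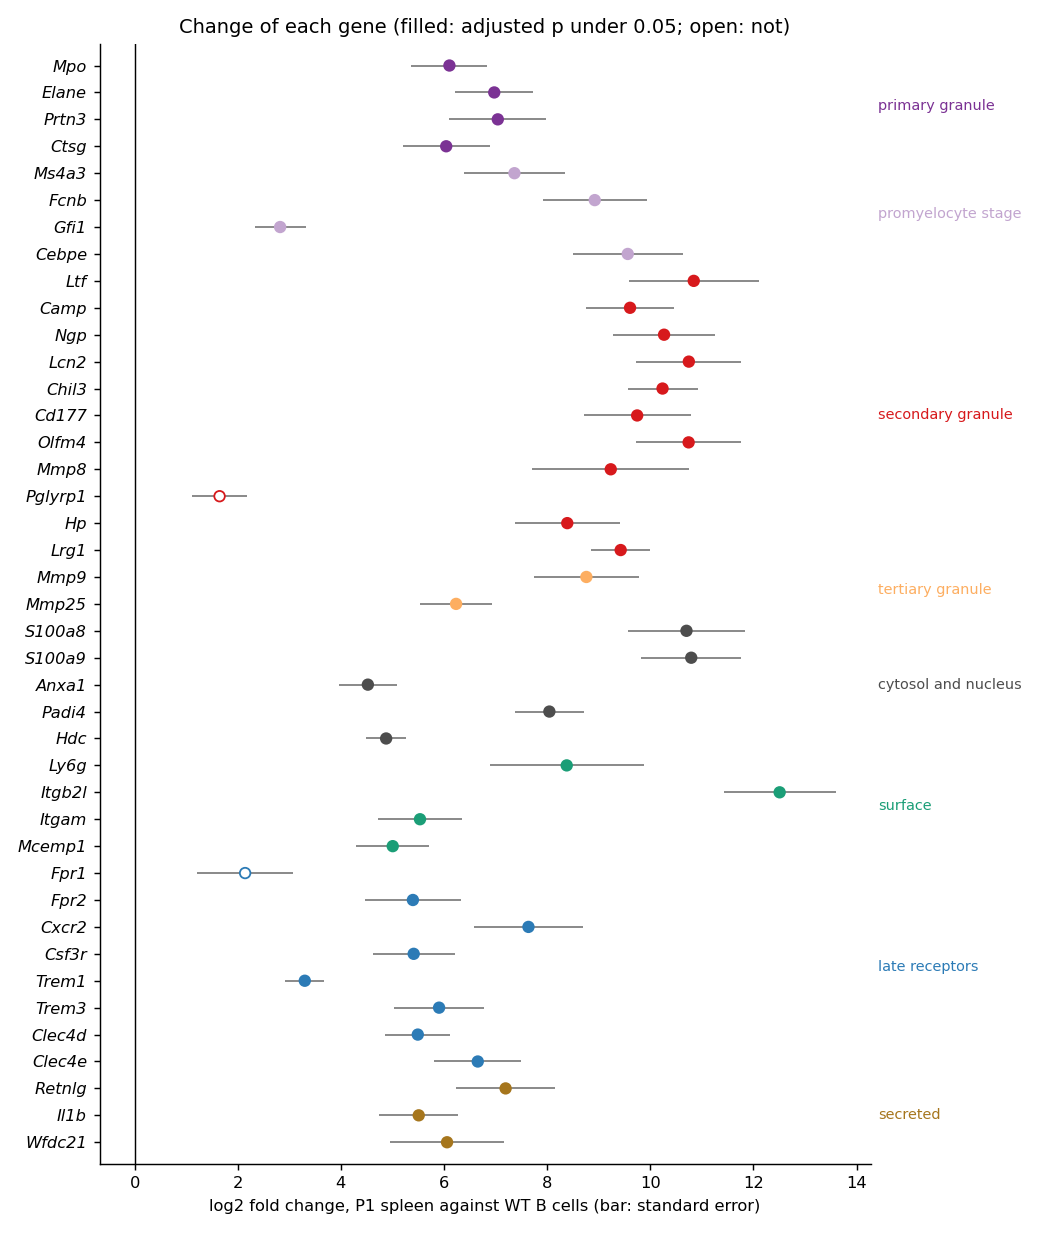
Log2 fold change of each gene between P1 spleen and WT B cells (edgeR), with its approximate standard error as a bar, coloured by class. Filled circles passed an adjusted p of 0.05. The 11 secondary granule genes span 1.65 (Pglyrp1) to 10.84 (Ltf) and the 8 late receptors 2.14 (Fpr1) to 7.64 (Cxcr2).

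Calprotectin, a complex of S100a8 and S100a9 that binds calcium and zinc, fills the cytosol of neutrophils. S100a9 (chromosome 3, 90599939 to 90603028) had the highest level per kilobase of all members, with 1890.2, 246 and 923 CPM per kb in the P1 libraries, ahead of Ngp on the mean but behind it in replicates 3 and 4. It went from 0.182, 0.321 and 0.378 to 987, 128 and 482 CPM (10.79 ± 0.97, edgeR adjusted p = 0.000531). S100a8, 22.6 kb away, went from 0.242, 0.0642 and 0.0756 to 532, 76.8 and 99.9 CPM (10.70 ± 1.13, edgeR adjusted p = 0.000733). The pair was not in fixed proportion: from replicate 3 to replicate 5 S100a8 fell by 2.41 on the log2 scale and S100a9 by 1.03.

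The other genes of this class also rose. Padi4, the enzyme that citrullinates histones in the making of extracellular traps, went from 0.545, 0.321 and 0.302 to 107, 40.5 and 173 CPM (8.04 ± 0.67, edgeR adjusted p = 0.000405), and was the only member highest in P1 replicate 5 other than Gfi1. Anxa1, an annexin gene that many cells express, was already at 6.06, 9.82 and 7.56 CPM in WT and reached 305, 69.0 and 165 in P1 (4.52 ± 0.56, edgeR adjusted p = 0.00109). Hdc, the histamine-forming enzyme, went from 2.06, 1.41 and 2.80 to 81.0, 53.9 and 49.3 CPM (4.88 ± 0.38, edgeR adjusted p = 0.000402). Basophils and mast cells make histamine too. Their 6 markers summed to 0.449 to 4.54 CPM in WT and to 58.3, 2.31 and 6.03 in P1, with Cma1 at 0 counts in P1 and 0 of the 2 tested called (2 at an unadjusted p under 0.05 in edgeR, 1 by DESeq2). Both Hdc and the sum of those markers were highest in replicate 3, and their part in the level of Hdc was not tested.

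Among surface proteins, Itgb2l showed the greatest contrast. This gene for a granulocyte integrin beta chain (chromosome 16, 96223488 to 96244819) had 0 counts in WT and 1292, 120 and 413 in P1, at least 1122-fold higher against 3 counts over WT (edgeR adjusted p = 0.00086). Ly6g, the usual surface marker of mouse neutrophils (chromosome 15, 75027089 to 75030975), had 0, 1 and 0 (WT) and 314, 8 and 28 (P1) counts, a ratio of 645 (counting interval 115 to 25562; edgeR adjusted p = 0.00438). Its log2 fold change of 8.38 was 6.32 without P1 replicate 3, which held 314 of its counts, and 9.87 without WT B, which held its 1 WT count. P1 replicates 4 and 5 held few Ly6g counts, and the gene fell by 3.87 and 3.06 on the log2 scale from replicate 3. Itgam, the CD11b integrin chain that monocytes and some B cells share, went from 0.545, 0.642 and 0.756 to 65.8, 10.4 and 14.2 CPM (5.53 ± 0.81, edgeR adjusted p = 0.00207). Mcemp1, a myeloid membrane protein gene, reached 46.8, 8.10 and 15.3 CPM from 0.727, 0.835 and 0.605 (5.00 ± 0.71, edgeR adjusted p = 0.00185).

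Of the 8 late maturation receptors 7 rose, and P1 replicate 3 was the highest library for each of the 8. Csf3r, the receptor of granulocyte colony-stimulating factor (chromosome 4, 125918343 to 125938233), went from 2.06, 1.61 and 2.80 to 190.4, 62.0 and 22.3 CPM (5.41 ± 0.80, edgeR adjusted p = 0.00213). Cxcr2, the chemokine receptor that draws neutrophils out of the marrow (chromosome 1, 74193150 to 74200405), went from 0.121, 0.0642 and 0.151 to 55.03, 7.40 and 9.40 CPM (7.64 ± 1.05, edgeR adjusted p = 0.00163). In both, replicate 3 stood well above the other recipients, and the groups did not overlap. The formyl peptide receptors Fpr1 and Fpr2 sense bacterial peptides and are neighbours on chromosome 17, 3.88 kb apart. Fpr2 went from 0.0606, 0.578 and 0.756 to 39.0, 6.71 and 12.4 CPM (5.40 ± 0.93, edgeR adjusted p = 0.00378). Fpr1 stood at 0.909, 1.54 and 2.04 CPM in WT and 16.3, 1.85 and 1.28 in P1, so only replicate 3 lay above the WT range. Its log2 fold change of 2.14 ± 0.94 was not called (edgeR adjusted p = 0.125), and it was 0.03 without P1 replicate 3 (adjusted p = 0.972). Fpr1 was called without P1 replicate 5 (2.63, edgeR adjusted p = 0.0494) and with B-cell-centred scaling (5.10, adjusted p = 0.00198), where the median of all genes was 3.03.

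The activating receptors of the Trem and C-type lectin families are shared with monocytes. Trem1, which amplifies inflammatory signals, went from 1.76, 1.80 and 1.44 to 20.8, 12.0 and 16.5 CPM (3.30 ± 0.38, edgeR adjusted p = 0.000876), and Trem3, 0.853 kb further along chromosome 17, from 0.121, 0.257 and 0.378 to 31.0, 4.17 and 10.6 CPM (5.90 ± 0.88, edgeR adjusted p = 0.00221). Trem1 varied least among the recipients of the 8 receptors. A transcript on the opposite strand of Trem1, AC241601.2, had 29, 9 and 15 counts in P1, and Trem1 242, 52 and 142. The lectin receptor genes Clec4d and Clec4e, 6.52 kb apart on chromosome 6, reached 6.54, 3.47 and 3.13 and 28.3, 9.02 and 5.80 CPM in P1, from at most 0.121 and 0.193 in WT (5.49 ± 0.63 and 6.65 ± 0.84, edgeR adjusted p = 0.00086 and 0.00116).

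The 3 secreted products rose as well. Retnlg, a resistin-like protein gene of neutrophils, went from 0.364, 0.0642 and 0.454 to 91.6, 11.8 and 27.5 CPM (7.19 ± 0.97, edgeR adjusted p = 0.00148). Il1b, the cytokine interleukin 1 beta, which monocytes also make, went from 0.848, 0.449 and 1.97 to 87.6, 42.3 and 17.4 CPM (5.51 ± 0.76, edgeR adjusted p = 0.00167). Wfdc21, a gene of the whey acidic protein family, had 0, 1 and 5 (WT) and 220, 11 and 66 (P1) counts (6.06 ± 1.11, edgeR adjusted p = 0.00501). Il1b was lowest of the recipients in replicate 5, whereas Retnlg and Wfdc21 were lowest in replicate 4.

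The classes are set side by side here without a test of their difference. The median log2 fold change was 6.54 for the 4 primary granule genes, 8.14 for the 4 of the promyelocyte stage, 9.74 for the 11 secondary and 7.50 for the 2 tertiary granule genes, and 5.45 for the 8 late receptors. It was 8.04 in the cytosol and nucleus class, 6.96 for surface proteins and 6.06 for secreted products. The genes of different classes overlapped, with secondary granule genes between 1.65 and 10.84, those of the promyelocyte stage between 2.82 and 9.56 and surface genes between 5.00 and 12.51. The summed level of the secondary granule genes was 23.8, 26.0 and 27.1 CPM in WT and 7378, 1137 and 3059 in P1, where Pglyrp1 alone supplied 20.5 to 24.8 CPM of the WT sum. Primary granule genes summed to 1.21, 1.09 and 6.05 and 369, 139 and 184 CPM, tertiary granule genes to 0.545, 0.642 and 1.21 and 349, 43.5 and 137, and late receptors to 5.21, 6.10 and 7.79 and 387, 107 and 81.3. For every class the lowest P1 library lay above the highest WT library. No test is given for these sums, as the members were chosen with earlier results of these data known.

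**Figure D3:**
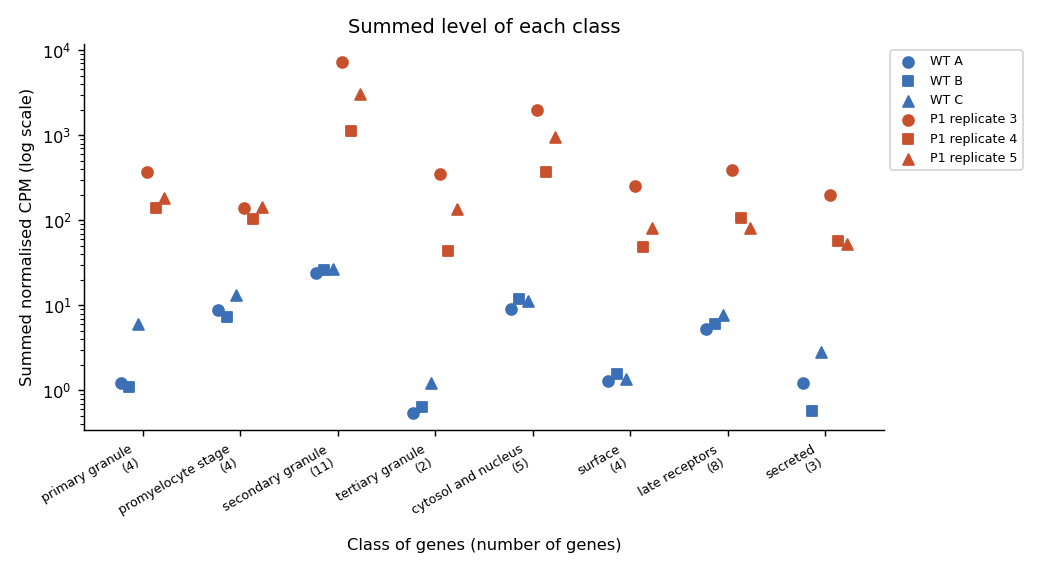
Summed normalised CPM (log axis) of the genes of each class in each library, with the number of genes in brackets; blue marks are WT B cells, orange marks P1 spleens. Secondary granule genes reach 1137 to 7378 CPM in P1 and 23.8 to 27.1 in WT.

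All 41 genes together took 1.24%, 0.115% and 0.509% of the counts of P1 replicates 3, 4 and 5 (exact Clopper-Pearson 95% intervals 1.24 to 1.25, 0.113 to 0.118 and 0.504 to 0.514) and 0.00604 to 0.00767% of those of the WT libraries. In normalised CPM the P1 sums were 11081, 2004 and 4708 and the WT sums 51.1, 55.3 and 70.7. Gfi1, Pglyrp1 and Anxa1, the 3 members with a WT mean of at least 5 CPM, supplied most of the WT sum: the other 38 summed to 15.8, 13.4 and 28.6 CPM there. Those 38 summed to 10621, 1829 and 4389 CPM in P1. WT C had the highest sum of these in WT, and 80 of its counts were of primary granule genes against 20 and 17 in WT A and B.

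The recipients differed in the amount of these transcripts. Of the 41 genes 38 were highest in replicate 3, against 35.9% of the 14841 tested genes with counts in every P1 library, and 31 had the order replicate 3, then 5, then 4, against 18.5%. From replicate 3 to replicate 4 the members fell by a median of 2.43 on the log2 scale, and from replicate 3 to replicate 5 by 1.21. Over those tested genes the medians were -0.12 and -0.10. Among the exceptions, Gfi1 was higher in replicates 4 and 5 than in 3 (1.64 and 1.86), Padi4 was higher in replicate 5 than in 3 (0.70) and Lrg1 higher in replicate 4 than in 3 (0.22). These are single libraries, and each difference has no replicate.

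**Figure D4:**
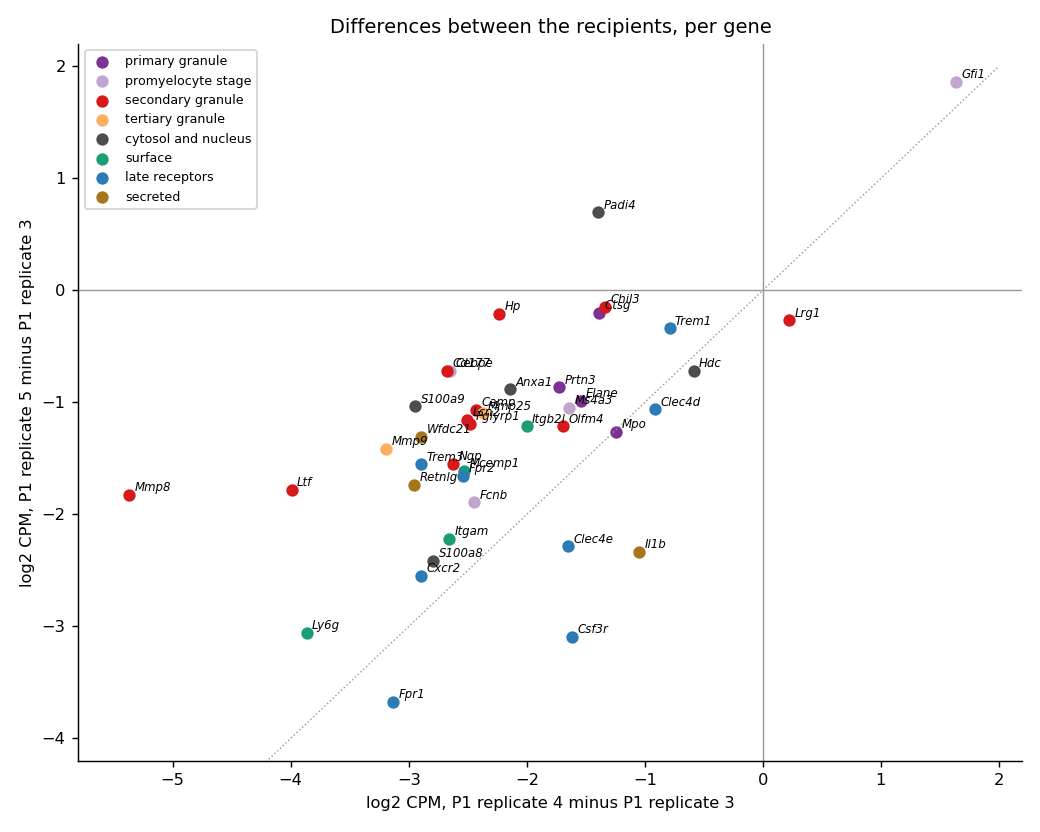
Difference in log2 normalised CPM of each gene between P1 replicates 4 and 3 (horizontal) and between P1 replicates 5 and 3 (vertical), coloured by class; the dotted line marks equal differences. Most genes lie in the lower left, below replicate 3 in both, with Mmp8 and Ltf far to the left and Csf3r, Clec4e and Il1b below the dotted line.

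The proportions among the classes, which no scaling of the libraries alters, also varied. For every 100 counts of secondary granule genes there were 5.01 counts of primary granule genes in replicate 3 (95% counting interval 4.85 to 5.16), 12.2 in replicate 4 (11.2 to 13.3) and 6.02 in replicate 5 (5.72 to 6.34). Replicate 4, with the fewest counts of these genes, had the most primary granule counts per secondary granule count. The 6 markers of blood progenitors summed to 108, 133 and 80.4 CPM in P1 replicates 3, 4 and 5 against 16.8 to 34.5 in WT. Their sum was highest in replicate 4, but single markers went both ways. From replicate 3 to replicate 4 their median difference was -0.03 on the log2 scale, with a range of -4.69 to 0.82. Of the 5 tested, 2 were higher and 0 lower (edgeR adjusted p; 3 and 0 at an unadjusted p under 0.05, 3 and 0 by DESeq2), and their part in these proportions was not tested. Late receptors gave 5.25 (5.09 to 5.41), 9.38 (8.51 to 10.3) and 2.66 (2.46 to 2.86) counts per 100 of secondary granule genes. They too were highest in replicate 4, and they were lowest in replicate 5. Tertiary granule genes were steadier, at 4.73 (4.58 to 4.88), 3.83 (3.29 to 4.43) and 4.47 (4.22 to 4.74). The promyelocyte stage gave 1.87, 9.16 and 4.71, but without Gfi1, left out after its values were seen, 1.51 (1.43 to 1.60), 1.89 (1.52 to 2.32) and 1.55 (1.40 to 1.71). Against primary granule genes, late receptors had 105, 76.6 and 44.1 counts per 100. Csf3r alone, named after its values were seen, held 2214, 268 and 192 of the 4504, 461 and 701 late receptor counts. Ratios without Csf3r were not computed. The intervals treat counts as independent and cover counting error only, with 1 library each.

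**Figure D5:**
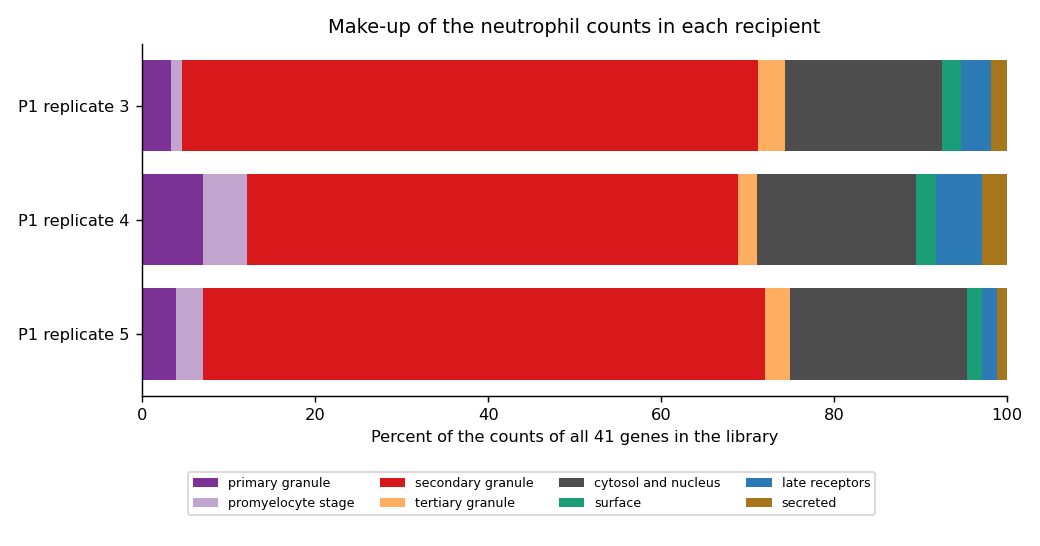
Share of the counts of the 41 genes that each class takes in each P1 library, in percent. Secondary granule genes take 66.6%, 56.7% and 65.0% and primary granule genes 3.33%, 6.95% and 3.92% in replicates 3, 4 and 5.

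Most of the other neutrophil genes tested rose, as did most tested regulators of granulopoiesis. Of 22 other neutrophil genes 16 were tested, and 13 were higher and 2 lower in P1 (median log2 fold change 4.05). Among all tested genes 16.9% were higher and 11% lower, so the 2 lower calls are near that share. Ltb4r1, the leukotriene B4 receptor, rose by 8.26 ± 0.78, Alox5, the 5-lipoxygenase, by 6.32 ± 0.61 and Adam8, a granulocyte metalloproteinase gene, by 4.10 ± 0.38 (edgeR adjusted p = 0.000579, 0.000579 and 0.000579). Lyz2, the lysozyme gene of all myeloid cells, went from 7.33, 11.1 and 30.1 to 1471, 42.8 and 312 CPM (5.24 ± 1.23, edgeR adjusted p = 0.0143). Of the genes that fell, Serpinb1a, which encodes an inhibitor of neutrophil proteases and is named after its values were seen, went from 140.2, 139.7 and 95.8 to 75.8, 29.6 and 44.7 CPM (-1.32 ± 0.37, edgeR adjusted p = 0.0298). Bpi had 0 counts in all 6 libraries. Of 9 regulators of granulopoiesis 8 were tested, with 6 higher and 0 lower (0 also at an unadjusted p under 0.05 in edgeR and by DESeq2). Csf2rb and Csf2rb2, receptor chains for granulocyte-macrophage growth factors, rose by 3.58 ± 0.27 and 5.46 ± 0.51, and Cebpd, a C/EBP factor, by 4.28 ± 0.50 (edgeR adjusted p = 0.000376, 0.000579 and 0.00091). Csf2rb stood at 362, 418 and 455 CPM in P1 replicates 3, 4 and 5, the same order of recipients as Gfi1.

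The subunits of the phagocyte NADPH oxidase, which B cells also express, gave no call. Of 6 tested, 0 were called in either direction (edgeR adjusted p; 0 at an unadjusted p under 0.05, 0 by DESeq2), and their median log2 fold change was -0.23. The Cyba and Rac2 genes had log2 fold changes of 0.65 ± 0.43 and -0.57 ± 0.40 (edgeR adjusted p = 0.299 and 0.331). In Rac2 every P1 library lay below every WT library, which held for 24.9% of all tested genes. In the other subunits the groups overlapped. The 6 genes summed to 1856 to 2023 CPM in WT and to 2163, 932 and 2098 in P1.

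Markers of other cells were read beside these values. Of 20 monocyte and macrophage markers 4 were higher and 0 lower (8 and 0 at an unadjusted p under 0.05 in edgeR, 6 and 0 by DESeq2). The share of all tested genes was 16.9% higher and 11% lower by edgeR adjusted p, so the 4 calls are near that share. The median log2 fold change of the 20 markers was 1.13, with a lowest value of -0.21. They summed to 399, 888 and 1175 CPM in WT and 2729.9, 1123 and 1085 in P1, and no marker was at 0 counts in either group. Ly6c2 and Ccr2, markers of inflammatory monocytes, rose by 4.70 ± 0.81 and 5.30 ± 1.29 (edgeR adjusted p = 0.00388 and 0.0169), and were at 121, 12.0 and 33.3 and 250.2, 10.2 and 14.2 CPM in P1, highest in replicate 3. DESeq2 did not call Ccr2. Marco, a scavenger receptor gene of macrophages, rose by 3.33 ± 0.76 (edgeR adjusted p = 0.0125) and was highest in replicate 4, at 12.4, 29.4 and 9.28 CPM. Of 9 eosinophil markers 4 were tested and 0 called (0 at an unadjusted p under 0.05 in edgeR, 0 by DESeq2). They summed to 29.4 to 44.4 CPM in WT and 15.8 to 58.4 in P1, with Ear1 at 0 counts in P1. Of 6 dendritic cell markers 5 were tested and 0 called (0 at an unadjusted p under 0.05 in edgeR, 0 by DESeq2), and they summed to 13.7 to 29.5 CPM in WT and 55.6, 12.7 and 13.8 in P1. All 10 T cell and all 11 erythroid markers were higher. T cell markers summed to 611, 266 and 291 CPM in P1 replicates 3, 4 and 5, so replicate 3 was highest there too. The part of other cells in the change of Itgam, Il1b, Hdc, Anxa1, Trem1, Trem3, Chil3, Clec4d and Clec4e, which monocytes or other cells share, was not tested.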

How the data were processed

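The authors deposited raw counts per gene for all 6 samples in 1 table. Per the labels' protocols, 50 ng of total RNA went into NEBNext Ultra Directional libraries. Per the submitters' processing notes, Trim Galore, HISAT2 and featureCounts were used with GRCm39; the counting strand and versions are not given in the sources used here. Of 56884 genes, 51948 were given a symbol by ID, all 41 members among them. Counts were filtered with filterByExpr by group, scaled by TMM and tested with edgeR 4.0.16 (glmQLFit, robust, R 4.3.3), without covariates, with Benjamini-Hochberg adjustment over all 15462 tested genes. DESeq2 1.42.0 was an alternative, and the procedure was tested on simulated data; other scalings, no filter and leaving out each library were also tried. Every member could be named; of other lists, the 3 genes with the smallest adjusted p, the most abundant, and those under 3 counts in a group. The members and lists were chosen with earlier results of these data known. Gene lengths are those the authors deposited in the table, and a level per kb is normalised CPM divided by that length. Independence of the animals or tumours within a group is not given, and a p-value here reflects only the spread among libraries. Gene totals of 7510327 to 14266132 counts set the counting precision. The values of 1 gene of the other lists are not reported here.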

Additional observations from a re-analysis of the deposited data

How the results depend on the processing

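Each setting was changed alone: DESeq2 size factors in edgeR, library totals without TMM, scaling to pan-B cell genes, DESeq2, no filter on low counts, and leaving out each of the 6 libraries. The number of members called higher ran from 38 to 41 and the number lower was 0 under all 11 settings. Of 451 member values, 0 changed direction, 1 call was lost (Mmp8, with no filter) and 6 calls were gained, all of Pglyrp1 or Fpr1. Scaling to pan-B cell genes moved the members' median log2 fold change to 10.05, that of all tested genes to 3.03, and the numbers of all genes higher and lower to 14006 and 92. These 2 numbers ran from 1644 to 3206 and from 815 to 2313 when a library was left out; without WT A, B or C the lower genes were 827, 815 and 979, and the higher genes 1715 without WT A and 1644 without WT B. With a library left out the members' median ran from 6.32 without P1 replicate 3 to 7.86 without WT C. The causes of these shifts were not tested. No paired analysis was possible, because the labels give no pairing between WT and P1 mice and the WT columns carry no mouse number. Depth limits the folds of the 8 members with 0 to 3 counts over the WT group.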

Other observations

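Genes of the lineage outside the 41 had several orders among the recipients. The following were picked after their values were seen. Cxcl2, a chemokine that attracts neutrophils, stood at 1.63, 19.7 and 3.60 CPM in P1 replicates 3, 4 and 5, and the decoy receptor gene Il1r2 at 16.6, 40.5 and 28.2, both highest in replicate 4, as was 1 of the 41 genes above, Lrg1. The stefin A genes Stfa1, Stfa2 and Stfa3 and the gene Ceacam10 had 0 counts in the 3 WT libraries and 27, 39, 20 and 70 counts over the P1 libraries, too few for the test. Their relative Stfa2l1 had 0 counts in WT and 57, 14 and 36 in P1, at least 65.8-fold higher against 3 counts over WT (edgeR adjusted p = 0.00112), and was highest in replicate 3. Asprv1, a protease gene, was highest in replicate 5, at 6.02, 8.33 and 15.8 CPM.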
